A study of Homo sapiens with 16 samples.

Results

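The genes described here are 54 interferon-stimulated genes of HMC3 cells, an immortalized human microglial cell line, taken by gene symbol, from a list of well-known members of the program, out of the 25370 genes of the RNA-seq count table. The study asked how ketamine and its active metabolites change gene expression in these cells, alone or together with estradiol (E2), and it held 16 libraries, 2 for each of 8 conditions. The conditions were vehicle, E2 (0.1 nM), ketamine, the hydroxynorketamines (2S,6S)-HNK and (2R,6R)-HNK, and each of these 3 drugs together with E2 (E2+ketamine, E2+(2S,6S)-HNK, E2+(2R,6R)-HNK), the drugs at 400 nM. Every treatment lasted 24 h. The labels name no added interferon in any condition. The libraries held 55300614 to 81646165 counts. No label says that the libraries of the same condition came from separate cultures, so p-values measure only the spread between these libraries, which may be technical. In such bulk RNA, fewer cells of a kind and less RNA per cell cannot be told apart. All libraries came from this 1 cell line, and 10 of 14 microglial markers, among them AIF1, CX3CR1, P2RY12, TMEM119 and SPI1, had fewer than 10 counts in every library, while the summed level of 5 fibroblast and pericyte markers was 3960 to 5860 CPM (counts scaled to the size of the library, after TMM normalization).

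Interferon-stimulated genes are the antiviral program of a cell. Type I interferon binds the receptor IFNAR1/IFNAR2, the kinases JAK1 and TYK2 become active, and a complex that holds STAT2 and IRF9 binds the interferon-stimulated response element (ISRE) in promoters. Many of the genes also keep a low level without interferon, and microglia use the same program in viral infection and neuroinflammation. The products sense viral RNA, block translation, degrade RNA, hold virus particles at membranes or tag proteins with the ubiquitin-like ISG15.

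Promoter sequences are shown first for 6 genes whose levels are followed below, to set genes that rose beside a gene that fell. RefSeq promoter windows on GRCh38.p14, from 250 bases before to 50 bases after the transcription start, matched 43 of the 54 genes; no window was at hand for IFIT2, IFITM2, MX2, OAS2, OASL, DHX58, UBA7, USP18, TRIM22, PML and GBP2. The ISRE was searched as GAAANNGAAA on both strands, and the gamma-activated site (GAS), another motif of interferon-responsive promoters, as TTCNNNGAA. Each sequence below holds the 150 bases before a start, 5′ to 3′ in the direction of transcription, with ISRE matches in capitals; neighbouring matches share bases, and a match that began before the window is cut at its edge. The positions are chr1:1013347-1013496 (plus strand) for ISG15, chr1:27672193-27672342 (minus strand) for IFI6, chr19:17405631-17405780 (minus strand) for BST2, chr11:313890-314039 (plus strand) for IFITM1, chr12:112906812-112906961 (plus strand) for OAS1 and chr10:89414418-89414567 (plus strand) for IFIT5.
ISG15: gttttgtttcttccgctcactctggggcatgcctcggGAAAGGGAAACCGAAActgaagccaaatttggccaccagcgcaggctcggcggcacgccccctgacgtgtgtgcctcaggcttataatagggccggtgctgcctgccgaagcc
IFI6: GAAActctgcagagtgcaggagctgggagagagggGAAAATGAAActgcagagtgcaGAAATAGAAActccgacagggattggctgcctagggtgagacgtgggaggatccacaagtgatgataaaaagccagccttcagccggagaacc
BST2: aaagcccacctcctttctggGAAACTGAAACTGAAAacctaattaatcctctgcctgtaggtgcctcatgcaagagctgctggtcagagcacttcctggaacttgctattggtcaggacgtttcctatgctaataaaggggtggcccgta
IFITM1: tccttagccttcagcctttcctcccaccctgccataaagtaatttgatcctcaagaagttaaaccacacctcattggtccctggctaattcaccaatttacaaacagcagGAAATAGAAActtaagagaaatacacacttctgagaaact
OAS1: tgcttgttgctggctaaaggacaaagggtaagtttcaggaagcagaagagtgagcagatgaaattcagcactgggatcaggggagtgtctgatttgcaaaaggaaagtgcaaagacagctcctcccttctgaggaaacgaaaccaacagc
IFIT5: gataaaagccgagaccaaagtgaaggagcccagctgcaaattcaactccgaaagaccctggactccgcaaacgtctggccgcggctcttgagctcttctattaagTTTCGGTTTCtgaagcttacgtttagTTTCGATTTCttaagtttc

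The window of ISG15 held 2 ISRE matches, the nearest at 107 bases before the start, and that of BST2 held 2, the nearest at 124 bases. IFI6 held 3, the nearest at 93 bases, and IFITM1 held 2, of which 1 lay before the start, at 40 bases. OAS1 had no match to these letters in its window and 1 GAS match at 168 bases, outside the stretch shown. The ISRE search asks for 2 bases between the GAAA parts. It therefore did not count gaaacgaaa, with 1 base between, near the end of the OAS1 stretch. No match to these letters does not show that a promoter lacks the element. IFIT5, which by the counts was lower than vehicle under every treatment, held 3 ISRE matches. Of these, 2 lay before the start, the nearest at 19 bases. These 2 lie on the other strand, so the capitals show the reverse complement of the motif. Over the 43 genes, 29 (67.4%) held an ISRE match, against 4.38% of the 27305 genes with a window, and 12 (27.9%) held a GAS match, against 9.38%. By the calls given below, an ISRE match was present in 5 of 6 genes with a window that were higher under every treatment (ISG15, OAS3, IFITM3, IFI6 and LGALS3BP) and in 1 of 5 that were lower under every treatment (IFIT5). A further 5 of 8 genes that were lower in some treatments and higher in none also held one (HERC5, EIF2AK2, IFIT3, GBP3 and SAMD9), as did 10 of 12 that were higher in some and lower in none, 3 of 4 that moved in both directions and 2 of 3 that were called in none. These groups rest on the calls by the counts. After the correction for GC content and length described below, 4 genes were higher in every treatment (IFITM3, OAS3, PARP9 and UBA7). Only 2 were then lower in every treatment (ADAR and PNPT1), and motif shares were not counted for the corrected calls. A match to these letters is a description of the sequence and shows no binding.

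Positions in GRCh37, the build of the counts, were chr19:17513748-17516439 for BST2, chr11:310041-315272 for IFITM1, chr12:113343661-113371024 for OAS1, chr3:49842642-49851386 for UBA7 and chr10:91174325-91181362 for IFIT5. MX2 (chr21:42733926-42781320) and MX1 (chr21:42791947-42841998) are neighbours. The counts cover the exons of each gene.

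Most of the genes were expressed at low to moderate levels in vehicle, and a few were abundant. Per kilobase of exon, the highest vehicle levels were 150 ± 2.22 CPM for IFITM3, an endosomal virus restriction factor, 129 ± 0.865 for LGALS3BP, a secreted glycoprotein, 44 ± 0.289 for ISG15 and 42.8 ± 0.304 for ADAR, which edits double-stranded RNA (SD, n = 2). In this order each gene was above the next by more than the SDs, with the smallest gap between ISG15 and ADAR. At the other end, 5 genes were too low to test. CMPK2 and XAF1 had 2 counts each over all 16 libraries, IFI44L had 14 and RSAD2 (viperin) had 18. RTP4 had 65 counts in all and at most 12 in a library. The other 49 genes entered the tests. Of member counts from 1 to 9, 81.1% of 53 were even, as were 65.8% over all genes, against 49.9% of counts of 500 or more, and halving all counts was run as an alternative. The files do not settle whether the reads of a pair were counted together or each, so a printed count may be 1 read of a pair.

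The interferon genes themselves were close to silent. Of 20 type I and type III interferon genes, 14 had no count, no library held more than 4 counts of one of them, and the sum over genes and libraries was 30 counts.

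Against vehicle, the 49 genes tested moved in both directions under every treatment, and their calls (adjusted p under 0.05, all 16004 genes tested) have to be read beside a background in which most genes were called. Under E2, 17 genes were higher (34.7%; background 29.9%) and 11 lower (22.4%; background 32.7%). Under ketamine, 27 were higher (55.1%; background 26.8%) and 6 lower (12.2%; background 32.5%). Under (2S,6S)-HNK, 24 were higher (49%; background 32.1%) and 16 lower (32.7%; background 35.8%). Under (2R,6R)-HNK, 23 were higher (46.9%; background 31.7%) and 10 lower (20.4%; background 34.9%), or 25 and 6 with upper-quartile scaling. With E2 present the counts were 23 higher and 9 lower for E2+ketamine (backgrounds 34.3% and 37.4%). They were 19 and 15 for E2+(2S,6S)-HNK (backgrounds 24% and 35.7%), or 22 and 10 with upper-quartile scaling, and 21 and 18 for E2+(2R,6R)-HNK (backgrounds 33.4% and 36.3%). By these counts the share of risen genes was close to the background under E2 (34.7% against 29.9%) and above it in the other treatments. The share of lowered genes was close to the background for (2S,6S)-HNK and E2+(2R,6R)-HNK. Since the treatments share the vehicle libraries, these counts are not independent.

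The median log2 fold change of the 49 genes was 0.12 under E2, 0.41 under ketamine, 0.37 under (2S,6S)-HNK and 0.43 under (2R,6R)-HNK. In the presence of E2 it was 0.49 with ketamine, 0.09 with (2S,6S)-HNK and 0.16 with (2R,6R)-HNK. Over all genes tested the median lay between -0.06 and 0. Rises past 1 on the log2 scale that also passed the test numbered 2 under E2 (background 1.17%), 7 under ketamine (background 2.58%), 9 under (2S,6S)-HNK (background 5.24%) and 7 under (2R,6R)-HNK (background 1.82%). They numbered 14 under E2+ketamine (background 4.47%), 3 under E2+(2S,6S)-HNK (background 4.18%) and 5 under E2+(2R,6R)-HNK (background 6.1%). With upper-quartile scaling the members past 1 in either direction numbered 12 under (2R,6R)-HNK and 5 under E2+(2S,6S)-HNK. Falls of that size were seen for 4 genes under E2+(2R,6R)-HNK (background 5.41%), for IFIT5 under (2S,6S)-HNK (1 gene; background 3.84%) and for PNPT1 under E2+ketamine (1 gene; background 6.56%). None of these falls was past -1 after the correction for GC content and length described below, where the lowest was HERC5 under E2+(2R,6R)-HNK (-0.83). The other treatments had 0 such falls, beside backgrounds of 0.644% (E2), 0.981% (ketamine), 1.92% ((2R,6R)-HNK) and 1.67% (E2+(2S,6S)-HNK), although between 6 and 15 members were lower at the adjusted p alone. Under E2 the 2 genes were MX2 and GBP2. The call of MX2 was lost without E2 replicate 2, and that of GBP2 without E2 replicate 1 and without either vehicle library. In the heatmap of changes, rows of steady colour stand beside rows that change colour from treatment to treatment.

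**Figure D1:**
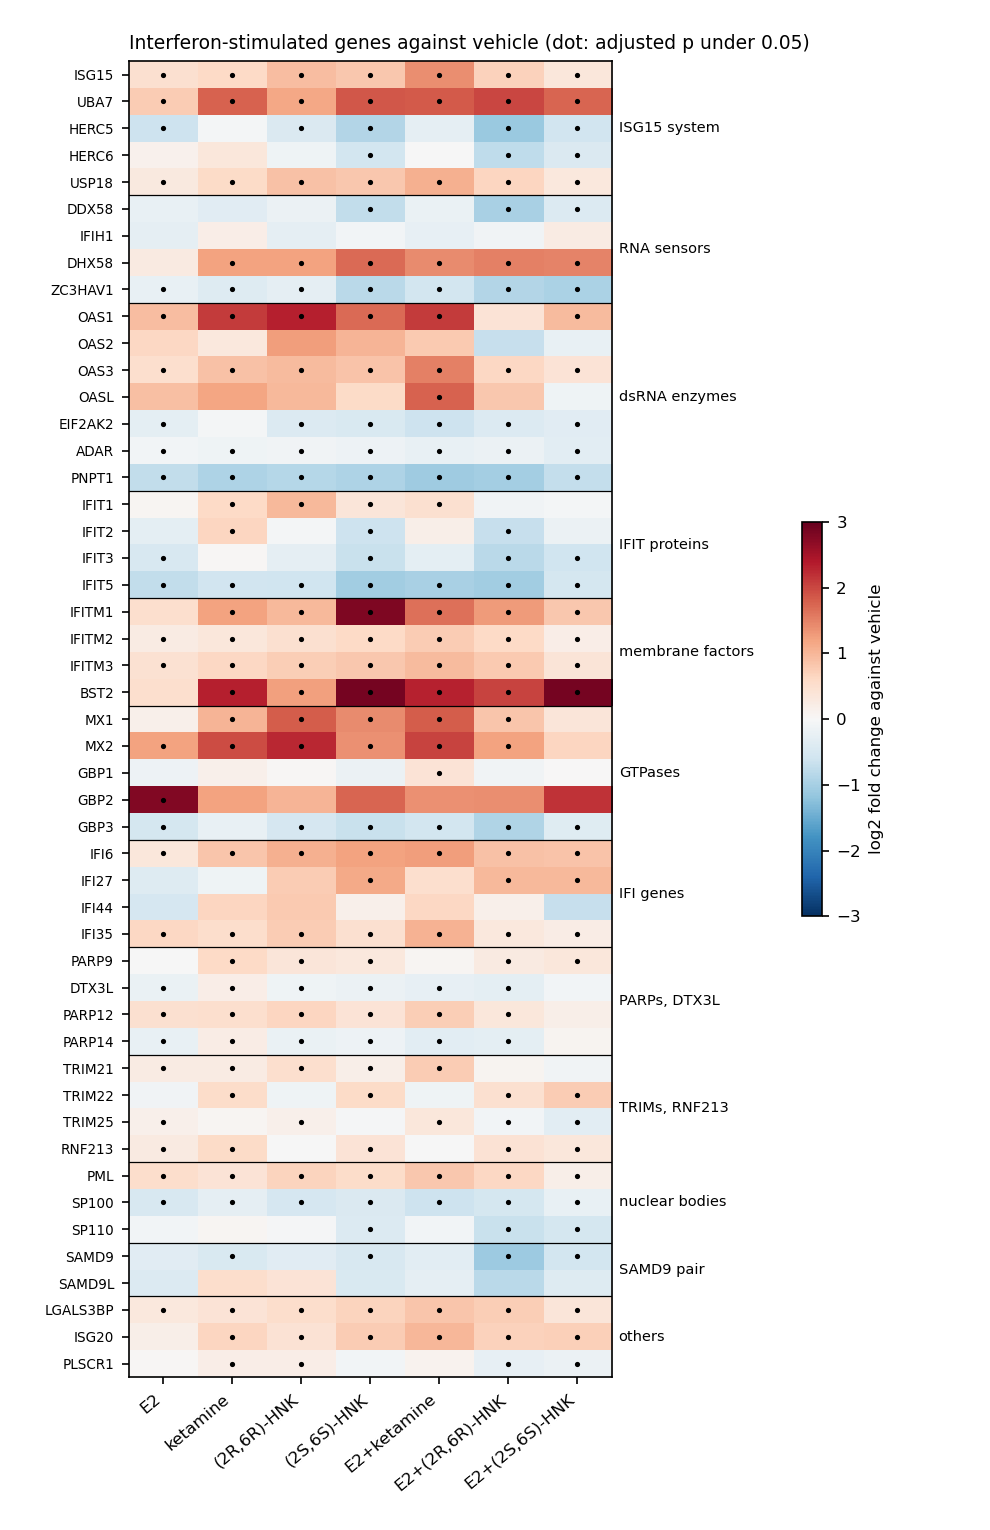
Colour gives the log2 fold change against vehicle of each of the 49 genes tested (rows, grouped by role) under 7 treatments (columns); a dot marks an adjusted p under 0.05. BST2, GBP2, UBA7, MX2, OAS1 and IFITM1 are among the reddest rows, although GBP2 has a dot under E2 alone, and PNPT1 and IFIT5 are blue throughout.

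Across the 7 treatments, 10 genes were higher than vehicle in every one, namely ISG15, UBA7, USP18, OAS3, IFITM2, IFITM3, IFI6, IFI35, PML and LGALS3BP. Another 5 were lower in every one, namely ZC3HAV1, ADAR, PNPT1, IFIT5 and SP100. A further 17 were higher in some and lower in none, 8 were lower in some and higher in none, and 5 (IFIT2, DTX3L, PARP14, TRIM25 and PLSCR1) changed direction between treatments. IFIH1, OAS2, IFI44 and SAMD9L passed the test in none by the counts. With log2 CPM corrected for the GC content and length of the genes, described below, 4 genes were still higher in every treatment (IFITM3, OAS3, PARP9 and UBA7, of which PARP9 was not among the 10) and 2 lower (ADAR and PNPT1). The shares of all genes with these patterns are not given here, and the 7 treatments share the vehicle libraries. The numbers of genes per pattern therefore describe the members only. The calls below are those by the counts, and corrected values are named as such.

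In the ISG15 system, the modifier ISG15, its activating enzyme UBA7 and the deconjugating protease USP18 rose under every treatment by the counts, while the ligases HERC5 and HERC6 were called higher under none. After the correction HERC6 was higher under ketamine (0.47, adjusted p = 0.0113). ISG15 read 27.9 and 28.2 CPM in the vehicle libraries, 37.9 and 39.9 under E2, 42.1 and 42.9 under ketamine, 48.9 and 48.4 under (2S,6S)-HNK, 52.0 and 55 under (2R,6R)-HNK, 71.9 and 75.6 under E2+ketamine, 37.1 and 34.1 under E2+(2S,6S)-HNK, and 46.5 and 43.8 under E2+(2R,6R)-HNK. No treated library overlapped vehicle, and E2+ketamine stood above all others, with a log2 fold change of 1.4 ± 0.05 (SE; adjusted p = 4.41e-30). ISG15 has a GC content of 64.2%, and its corrected value was 0.66 under E2+ketamine, while those under E2 (0.06) and E2+(2S,6S)-HNK (0.04) were not called. USP18 rose by 0.29 to 1.07 on the log2 scale, most under E2+ketamine as well, and its E2 and E2+(2S,6S)-HNK calls were lost in most fits that left out 1 library.

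UBA7 read 1.31 and 1.91 CPM in vehicle, 2.47 and 2.95 under E2, 5.54 and 5.49 under ketamine, 6.00 and 5.80 under (2S,6S)-HNK, 3.47 and 3.71 under (2R,6R)-HNK, 6.18 and 5.39 under E2+ketamine, 5.24 and 5.55 under E2+(2S,6S)-HNK, and 6.64 and 6.23 under E2+(2R,6R)-HNK. The 2 vehicle libraries were the lowest of the 16, and every treated library lay above them. The log2 fold change was 0.75 ± 0.16 for E2 (adjusted p = 5.8e-05), 1.78 ± 0.15 for ketamine (adjusted p = 1.66e-15), 1.15 ± 0.16 for (2R,6R)-HNK (adjusted p = 3.14e-09) and 1.87 ± 0.15 for (2S,6S)-HNK (adjusted p = 2.96e-16). HERC5, the main ISG15 ligase in human cells, was lower in 5 treatments, down to -1.12 ± 0.18 under E2+(2R,6R)-HNK, and HERC6 was lower in 3. After the correction HERC5 was lower in 3 (-0.83 under E2+(2R,6R)-HNK) and HERC6 in 1.

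Of the 4 RNA sensors, DHX58 (LGP2), a regulator of the other sensors, was the 1 called higher by the counts. It read 0.163 and 0.235 CPM in vehicle (10 and 14 counts), 0.160 and 0.322 under E2, 0.561 and 0.361 under ketamine, 0.693 and 0.611 under (2S,6S)-HNK, 0.466 and 0.455 under (2R,6R)-HNK, 0.439 and 0.631 under E2+ketamine, 0.393 and 0.746 under E2+(2S,6S)-HNK, and 0.684 and 0.447 under E2+(2R,6R)-HNK. E2 overlapped vehicle and the 6 drug treatments did not. The largest value was 1.70 ± 0.49 under (2S,6S)-HNK (adjusted p = 0.00123). At these counts the other 5 calls were each lost without at least 1 library, for example under ketamine without ketamine replicate 1 (0.86, adjusted p = 0.224). After the correction it was called under (2S,6S)-HNK and under E2 with either HNK, and not under ketamine (adjusted p = 0.103).

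By the counts, the sensors RIG-I (DDX58) and MDA5 (IFIH1) were called higher in no treatment. DDX58 was lower in 3 treatments, down to -0.98 ± 0.16 under E2+(2R,6R)-HNK, and IFIH1 lay between -0.28 and 0.25 with no call. ZC3HAV1 (ZAP), which binds CpG-rich viral RNA, was lower in all 7, from -0.22 ± 0.05 under E2 to -0.94 ± 0.05 under E2+(2S,6S)-HNK. The corrected values differed in part. DDX58 was then lower under E2+(2R,6R)-HNK alone (-0.46) and higher under (2R,6R)-HNK (0.37) and E2+ketamine (0.48), IFIH1 under ketamine and E2+(2S,6S)-HNK (0.43 each) and ZC3HAV1 under (2R,6R)-HNK (0.12), and ZC3HAV1 was still lower in 4 treatments. Of the DDX58 exons, 4471 bases overlap another GENCODE gene model on the same strand, and whether the authors' gene models hold it was not tested, so its counts are less certain.

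The enzymes that act on double-stranded RNA moved in both directions. Of the 2′-5′-oligoadenylate synthetases, which activate RNase L, OAS1 rose in 6 treatments and OAS3 in 7, while OAS2 was called in none by the counts. The editor ADAR and the mitochondrial RNA phosphorylase PNPT1 were lower, and the kinase PKR (EIF2AK2) was lower by the counts alone. OAS1 read 0.327 and 0.302 CPM in vehicle (20 and 18 counts), 0.673 and 0.526 under E2, 1.44 and 1.27 under ketamine, 0.931 and 1.14 under (2S,6S)-HNK, 1.58 and 1.63 under (2R,6R)-HNK, 1.42 and 1.28 under E2+ketamine, 0.687 and 0.513 under E2+(2S,6S)-HNK, and 0.416 and 0.419 under E2+(2R,6R)-HNK. No treated library overlapped vehicle, and the rise with each HNK was smaller when E2 was present. The log2 fold change was 2.10 ± 0.32 for ketamine (adjusted p = 4.9e-08), 2.34 ± 0.32 for (2R,6R)-HNK (adjusted p = 2.2e-09), 1.71 ± 0.34 for (2S,6S)-HNK (adjusted p = 6.92e-06), 2.09 ± 0.33 for E2+ketamine (adjusted p = 5.08e-08) and 0.41 ± 0.36 for E2+(2R,6R)-HNK (adjusted p = 0.318). Under E2 it was 0.93 ± 0.35 (adjusted p = 0.0175), a call lost without E2 replicate 1 (0.74, adjusted p = 0.14) and without either vehicle library.

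OAS2 read 0.163 and 0.168 CPM in vehicle (10 counts in each library), 0.224 and 0.288 under E2, 0.234 and 0.181 under ketamine, 0.219 and 0.458 under (2S,6S)-HNK, 0.441 and 0.350 under (2R,6R)-HNK, 0.321 and 0.256 under E2+ketamine, 0.0491 and 0.249 under E2+(2S,6S)-HNK, and 0.107 and 0.0977 under E2+(2R,6R)-HNK. By the counts it passed the test against vehicle in no treatment, with its highest value of 1.26 ± 0.59 under (2R,6R)-HNK (adjusted p = 0.0509). After the correction it was called higher under (2R,6R)-HNK (1.44, adjusted p = 0.0351). OAS3, the most abundant of the family here, rose in all 7, by 0.41 under E2+(2S,6S)-HNK to 1.50 ± 0.08 under E2+ketamine. OASL, a relative without synthetase activity, rose only under E2+ketamine (1.77 ± 0.60, adjusted p = 0.00547), a call lost without vehicle replicate 2 (1.18, adjusted p = 0.122).

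PNPT1 read 43.6 and 44.8 CPM in vehicle, 26.6 and 26.5 under E2, 23.2 and 23.3 under ketamine, 23 and 23.6 under (2S,6S)-HNK, 24.4 and 24.7 under (2R,6R)-HNK, 20.8 and 21.6 under E2+ketamine, 27.8 and 26.1 under E2+(2S,6S)-HNK, and 21.2 and 22.1 under E2+(2R,6R)-HNK. The vehicle libraries stood apart from the other 14. Its log2 fold change ran from -0.71 ± 0.06 to -1.06 ± 0.06, with adjusted p of at most 9.36e-17, and its corrected values were smaller, from -0.28 to -0.57. ADAR, with 281 and 284 CPM in vehicle, read 268 and 266 under E2, 259 and 258 under ketamine, 253 and 258 under (2S,6S)-HNK, 261 and 264 under (2R,6R)-HNK, 242 and 243 under E2+ketamine, 224 and 231 under E2+(2S,6S)-HNK, and 250 and 251 under E2+(2R,6R)-HNK. These falls were small, -0.08 ± 0.03 to -0.31 ± 0.03, but no treated library overlapped vehicle. EIF2AK2 was lower in 6 treatments by the counts, and in 5 of them its corrected value was called higher (0.13 to 0.28).

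The IFIT proteins, which hold back the translation of RNA with a foreign 5′ end, did not move as 1 group. IFIT1 rose under ketamine (0.59 ± 0.14), (2R,6R)-HNK (0.98 ± 0.14), (2S,6S)-HNK (0.37 ± 0.14) and E2+ketamine (0.49 ± 0.14), and the ketamine, (2S,6S)-HNK and E2+ketamine calls were lost without vehicle replicate 1. IFIT2 rose under ketamine alone (0.65 ± 0.21) and was lower under (2S,6S)-HNK and E2+(2R,6R)-HNK, and IFIT3 was lower in 4 treatments. After the correction IFIT1 was higher in 6 treatments, IFIT2 under ketamine and E2+ketamine (0.94 and 0.74), and IFIT3 lower in 2. IFIT5 read 16.4 and 16.4 CPM in vehicle, 9.92 and 9.51 under E2, 10.8 and 11.3 under ketamine, 7.79 and 8.16 under (2S,6S)-HNK, 10.9 and 10.8 under (2R,6R)-HNK, 8.6 and 8 under E2+ketamine, 11.4 and 11.2 under E2+(2S,6S)-HNK, and 7.82 and 7.96 under E2+(2R,6R)-HNK. All 14 treated libraries were below vehicle, by -0.53 ± 0.08 to -1.05 ± 0.09. IFIT5 has a GC content of 37.55% in its exons, and its corrected changes were -0.47 to 0.01, under (2R,6R)-HNK with the opposite sign.

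The membrane restriction factors were the group that rose most evenly, with 4 of 4 genes higher in each of the 6 drug treatments and 2 of 4 under E2, beside the backgrounds for higher genes given above. After the correction BST2 under (2R,6R)-HNK (0.87, adjusted p = 0.192), and IFITM2 under E2+(2S,6S)-HNK (0.02, adjusted p = 0.79) and under E2 (adjusted p = 0.967), were not called. BST2 (tetherin), which ties budding virus particles to the cell surface, read 0.0981 and 0.168 CPM in vehicle (6 and 10 counts), 0.208 and 0.170 under E2, 0.596 and 0.759 under ketamine, 0.657 and 1.31 under (2S,6S)-HNK, 0.402 and 0.210 under (2R,6R)-HNK, 0.540 and 0.785 under E2+ketamine, 1.09 and 0.871 under E2+(2S,6S)-HNK, and 0.671 and 0.419 under E2+(2R,6R)-HNK. Treated libraries did not overlap vehicle, although under E2 and in 1 (2R,6R)-HNK library the gap was small. The log2 fold change was 2.34 ± 0.52 for ketamine (adjusted p = 2.81e-05), 1.24 ± 0.56 for (2R,6R)-HNK (adjusted p = 0.0385), 2.88 ± 0.52 for (2S,6S)-HNK (adjusted p = 3.6e-07) and 2.88 ± 0.52 for E2+(2S,6S)-HNK (adjusted p = 3.8e-07). Without (2R,6R)-HNK replicate 1 the (2R,6R)-HNK value was 0.65 (adjusted p = 0.444).

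IFITM1, which acts at the plasma membrane, read 1.37 and 1.06 CPM in vehicle, 1.76 and 1.71 under E2, 3.16 and 2.41 under ketamine, 3.96 and 13.1 under (2S,6S)-HNK, 2.03 and 2.82 under (2R,6R)-HNK, 4.48 and 3.22 under E2+ketamine, 2.11 and 2.18 under E2+(2S,6S)-HNK, and 2.75 and 3.16 under E2+(2R,6R)-HNK. The value of 13.1 (770 counts against 217 in the other library) stood far above the rest, and the same library held the highest BST2 level. The log2 fold change under (2S,6S)-HNK was 2.81 ± 0.29 (adjusted p = 4.36e-13), 1.70 without replicate 2 and 3.42 without replicate 1. It was 1.20 ± 0.30 under ketamine (adjusted p = 0.000385) and 0.98 ± 0.31 under (2R,6R)-HNK (adjusted p = 0.00415). IFITM2 and IFITM3 rose in all 7 treatments, by 0.19 to 0.75 and 0.38 to 0.95. The 3 IFITM genes are near-identical neighbours, and 351 bases of IFITM1 exons overlap another annotated gene on the same strand, so their counts are less certain.

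MX1 and MX2, dynamin-like GTPases that trap viral nucleocapsids, rose under ketamine and each metabolite, whereas the guanylate-binding proteins mostly did not. MX1 read 1.41 and 1.85 CPM in vehicle, 2.27 and 1.32 under E2, 2.84 and 3.76 under ketamine, 4.01 and 4.70 under (2S,6S)-HNK, 5.91 and 5.49 under (2R,6R)-HNK, 5.91 and 5.51 under E2+ketamine, 2.02 and 2.15 under E2+(2S,6S)-HNK, and 3.09 and 2.72 under E2+(2R,6R)-HNK. E2 overlapped vehicle, and E2+(2S,6S)-HNK lay just above it. The log2 fold change was 1.02 ± 0.18 for ketamine (adjusted p = 2.15e-06), 1.81 ± 0.18 for (2R,6R)-HNK (adjusted p = 2.55e-13), 1.42 ± 0.18 for (2S,6S)-HNK (adjusted p = 8.56e-10), 1.81 ± 0.18 for E2+ketamine (adjusted p = 2.27e-13) and 0.84 ± 0.18 for E2+(2R,6R)-HNK (adjusted p = 6.43e-05).

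MX2, which acts at the nuclear pore, read 0.262 and 0.285 CPM in vehicle (16 and 17 counts), 0.385 and 0.882 under E2, 1.05 and 1.08 under ketamine, 0.712 and 0.712 under (2S,6S)-HNK, 1.22 and 1.43 under (2R,6R)-HNK, 1.28 and 0.955 under E2+ketamine, 0.380 and 0.482 under E2+(2S,6S)-HNK, and 0.698 and 0.559 under E2+(2R,6R)-HNK. Every treated library was above vehicle, and the 2 E2 libraries differed most from each other. The E2 change of 1.20 ± 0.40 (adjusted p = 0.00686) was 0.49 without E2 replicate 2 (adjusted p = 0.41). It was 2.26 ± 0.38 for (2R,6R)-HNK (adjusted p = 2.07e-07) and 1.96 ± 0.38 for ketamine (adjusted p = 5.29e-06).

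By the counts GBP1 rose under E2+ketamine (0.40 ± 0.10), and GBP3 was lower in 6 treatments, by up to -0.91 ± 0.15. After the correction GBP1 was higher in 4 treatments, by 0.24 to 0.88, and GBP3 was lower in 1, E2+(2R,6R)-HNK (-0.48). The single call of GBP2, under E2, rested on 18 and 4 counts against 1 and 2 in vehicle and was lost without E2 replicate 1 (1.38) and without either vehicle library. The GBP genes are similar neighbours on chromosome 1, and reads that map to several of them were not counted.

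**Figure D2:**
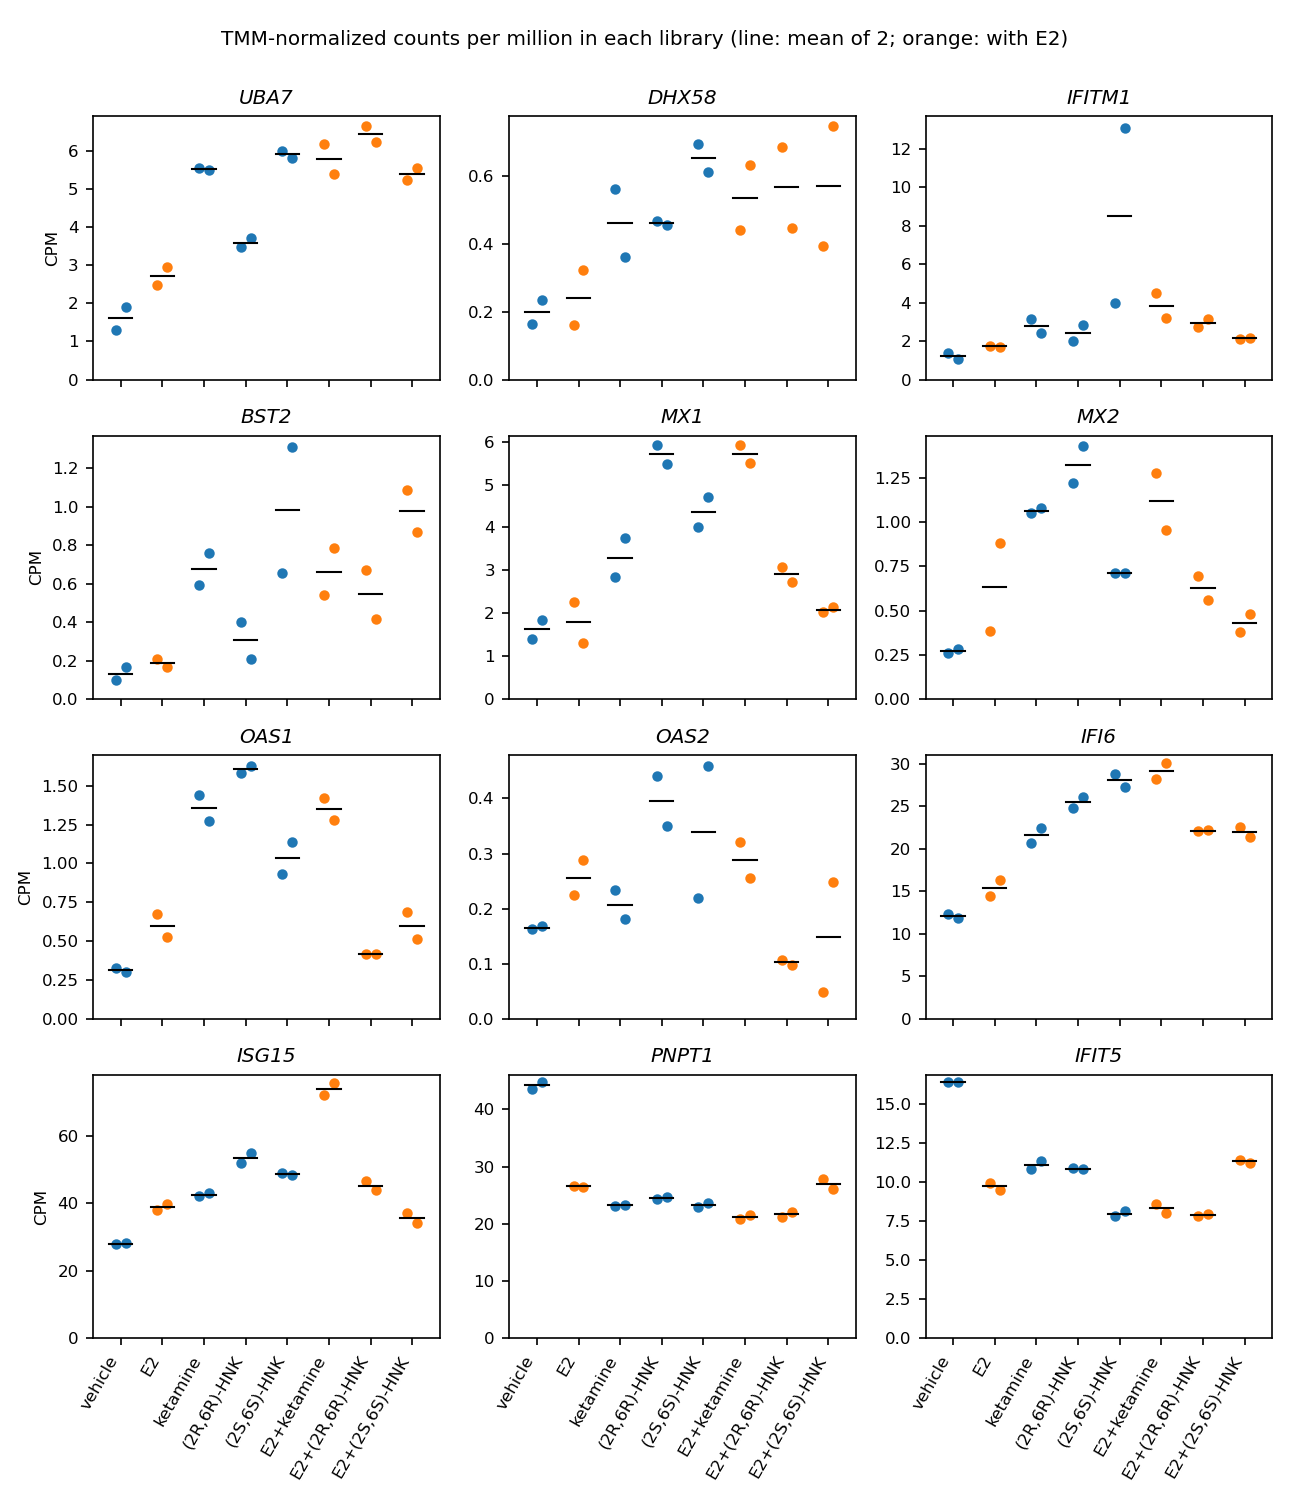
Each point is 1 library, in TMM-normalized CPM on a linear axis from 0, for 12 of the genes in the 8 conditions; the line is the mean of 2 libraries, and orange marks conditions with E2. IFITM1 under (2S,6S)-HNK reads 3.96 and 13.1 CPM, while PNPT1 and IFIT5 are highest in vehicle.

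Among the IFI genes, IFI6, a mitochondrial and endoplasmic reticulum protein, read 12.3 and 11.9 CPM in vehicle, 14.5 and 16.3 under E2, 20.7 and 22.5 under ketamine, 28.8 and 27.3 under (2S,6S)-HNK, 24.8 and 26.1 under (2R,6R)-HNK, 28.2 and 30.1 under E2+ketamine, 22.6 and 21.4 under E2+(2S,6S)-HNK, and 22.1 and 22.2 under E2+(2R,6R)-HNK. All treated libraries were above vehicle, E2 the least (0.34 ± 0.07), (2S,6S)-HNK (1.21 ± 0.07) and E2+ketamine (1.26 ± 0.07) the most. In the GENCODE models, 216 bases of the IFI6 exons overlap another gene on the same strand, so its counts are less certain. IFI35 rose in all 7 by the counts, by 0.22 to 1.04. After the correction it was lower under E2+(2R,6R)-HNK (-0.11, adjusted p = 0.048) and was not called under (2S,6S)-HNK (0.08) or E2+(2S,6S)-HNK (adjusted p = 0.958). IFI27 rose in 3 treatments by the counts, each a call lost without vehicle replicate 1, and in none after the correction, and IFI44 in none.

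Among the ADP-ribosyltransferases and the ligase DTX3L, PARP9, the partner of DTX3L, rose in 5 treatments (0.27 to 0.60) and PARP12 in 6 (0.34 to 0.74). DTX3L and PARP14 rose under ketamine (0.19 ± 0.06 and 0.22 ± 0.06) and by the counts were lower in 5 other treatments by -0.13 to -0.31. Their corrected values were above 0 in all 5, and were called higher under (2R,6R)-HNK (0.26 each), E2+ketamine (0.26 and 0.25) and the (2S,6S) form (0.16 and 0.22). Of the ligases, TRIM21, a cytosolic antibody receptor, rose in 5 treatments by the counts and TRIM22 in 4. TRIM25, which ubiquitinates RIG-I, rose in 3 and was lower in 2. After the correction TRIM21 was not called under (2S,6S)-HNK (0.09, adjusted p = 0.304), and TRIM22 was also higher under E2+ketamine (0.42). The corrected TRIM25 value was not called under E2 (0.08, adjusted p = 0.0633) and was called lower under (2S,6S)-HNK (-0.11).

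RNF213, a very large ligase of bacteria and lipid droplets, read 187 and 191 CPM in vehicle, 232 and 224 under E2, 278 and 285 under ketamine, 246 and 258 under (2S,6S)-HNK, 190 and 185 under (2R,6R)-HNK, 185 and 191 under E2+ketamine, 249 and 233 under E2+(2S,6S)-HNK, and 256 and 257 under E2+(2R,6R)-HNK. Here (2R,6R)-HNK and E2+ketamine overlapped vehicle (-0.01 ± 0.03 each), and the other treatments rose by 0.27 to 0.57. In the GENCODE models, 459 bases of the RNF213 exons overlap another gene on the same strand and 559 bases a gene on the other strand, and the strand setting of the counting is not given in the sources used here.

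Of the nuclear body proteins, PML, the scaffold, rose in all 7 treatments by the counts (0.18 to 0.80), and SP100 was lower in all 7 (-0.22 to -0.61) and SP110 in 3. After the correction PML was higher in 6 (-0.01 under E2+(2S,6S)-HNK, 0.35 at most), SP100 was called in none (-0.11 to 0.01), and SP110 was higher in 4 treatments (0.26 to 0.50) and lower in 2. SAMD9, which blocks translation of poxviral messages, was lower in 4 treatments, to -1.08 ± 0.18 under E2+(2R,6R)-HNK. After the correction it was lower in none (-0.38 under E2+(2R,6R)-HNK, adjusted p = 0.059) and higher under E2+ketamine (0.54). LGALS3BP, the gene with the highest mean CPM of the members, read 285 and 282 CPM in vehicle, 350 and 358 under E2, 372 and 381 under ketamine, 433 and 464 under (2S,6S)-HNK, 408 and 407 under (2R,6R)-HNK, 497 and 511 under E2+ketamine, 379 and 354 under E2+(2S,6S)-HNK, and 468 and 472 under E2+(2R,6R)-HNK. It rose in all 7, by 0.32 ± 0.03 to 0.83 ± 0.03. With a GC content of 61.2% its corrected values were -0.08 to 0.20. The exonuclease ISG20 rose in 6 treatments by the counts (0.43 to 1.0), and after the correction it was not called under (2R,6R)-HNK (0.24, adjusted p = 0.264). The scramblase PLSCR1 rose in 2 and was lower in 2 by the counts. The corrected PLSCR1 values were 0.13 to 0.83.

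The other genes of the pathway moved in both directions too. Of 39, 19 were tested, and 10 to 14 of them rose and 5 or 6 were lower in each treatment, beside backgrounds of 24% to 34.3% higher and 32.5% to 37.4% lower. After the correction 2 or 3 were lower under E2, ketamine, (2R,6R)-HNK and E2+ketamine. The fold changes that follow are those by the counts, and their corrected values are not given here. STAT2 (0.48 to 0.94), IRF9 (0.45 to 0.90), IRF7 (0.28 to 1.04) and TYK2 (0.50 to 0.84) rose in all 7, while JAK1 (-0.32 to -0.73), the receptor chain IFNAR1 (-0.36 to -0.73) and the kinase TBK1 (-0.59 to -0.91) were lower in all 7. IRF1 rose under E2 (0.52), ketamine (0.27), (2R,6R)-HNK (0.61) and E2+ketamine (0.78) and was lower in the 3 other treatments.

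GC content moved with these changes. The exons of members that rose had a median GC content of 52.7% to 56.9%, depending on the treatment, and those of members that were lower 40.9% to 43.4%, against a median of 46.9% for the members and 49.5% for all genes tested. Across the members, Spearman's correlation of the change with GC content was 0.476 (ketamine) to 0.723 (E2+(2R,6R)-HNK), and across all genes 0.45 to 0.778; genes share libraries, and these are descriptions. With log2 CPM of each library corrected for GC content and length, the members higher and lower were 16 and 4 for E2 (backgrounds 14.8% and 21.8%), 31 and 3 under ketamine (backgrounds 18% and 30.8%), 28 and 2 for (2R,6R)-HNK (backgrounds 19.9% and 24.1%) and 25 and 6 for the (2S,6S) form (backgrounds 25% and 31.2%). With E2 they were 32 and 3 for ketamine (backgrounds 23.9% and 27.6%), 22 and 12 for (2R,6R)-HNK (backgrounds 25.8% and 33%), and 16 and 8 for (2S,6S)-HNK (backgrounds 22.4% and 33.7%). The number of lower genes was smaller in each treatment, while the number of higher genes was smaller under E2 and E2+(2S,6S)-HNK and larger in the others. The rises of OAS1, MX1, MX2, BST2, UBA7 and IFITM1 under ketamine remained (2.04, 0.91, 1.93, 2.12, 1.48 and 1.06), and PNPT1 was still lower (-0.57). Which part of the changes GC content accounts for was not tested.

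**Figure D3:**
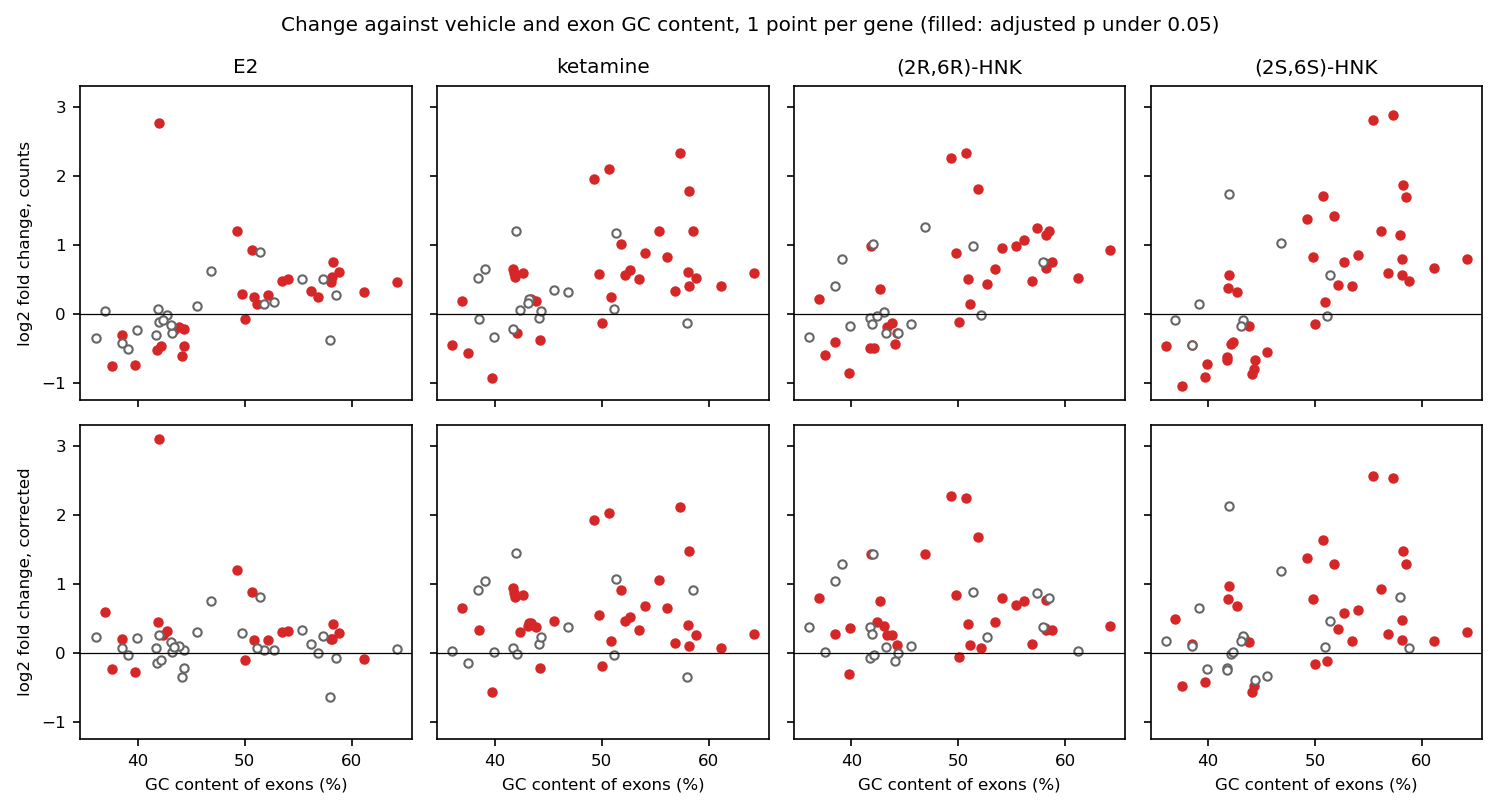
Log2 fold change against vehicle (vertical) and exon GC content in percent (horizontal) of the 49 genes for E2, ketamine and each HNK, from the counts (upper row) and after the correction (lower row); filled points have an adjusted p under 0.05. In the upper row the genes below 0 lie mostly at the left, at low GC content, and after the correction fewer lie below 0.

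Ketamine and its metabolites were compared at the same dose and time, in 6 pairs, of which 3 had E2 in both arms. The HNK compounds are enantiomers, mirror images at 2 ring carbons, and ketamine lacks their ring hydroxyl group and carries a methyl group on its nitrogen. Without E2, (2R,6R)-HNK was above (2S,6S)-HNK in 17 genes (background 21%) and below it in 6 (background 22.4%); the 17 became 11 without (2R,6R)-HNK replicate 2 or (2S,6S)-HNK replicate 1. No gene was above by more than 1 (background 1.02%) and 2 were below by more than 1 (background 1.51%). These were IFITM1 (-1.84 ± 0.25, adjusted p = 1.48e-08) and BST2 (-1.64 ± 0.41, adjusted p = 0.000565), higher with the (2S,6S) form. Without (2S,6S)-HNK replicate 2, the library with 770 IFITM1 counts, the values were -0.72 (adjusted p = 0.00529) and -1.06 (adjusted p = 0.089). UBA7 (-0.72 ± 0.13, adjusted p = 6.19e-06) and TRIM22 (-0.71 ± 0.13, adjusted p = 3.75e-06) were also higher with (2S,6S)-HNK, and IFIT1 was higher with (2R,6R)-HNK (0.61 ± 0.13, adjusted p = 0.000118). These 3 calls held without any 1 of the 4 libraries. MX2 (0.89 ± 0.31, adjusted p = 0.0175), OAS1 (0.63 ± 0.26, adjusted p = 0.0432) and MX1 (0.39 ± 0.15, adjusted p = 0.0347) were higher with (2R,6R)-HNK, but their calls were lost in 3, 4 and 3 of the 4 fits that left out a library, with values of 0.77 to 1.01, 0.50 to 0.78 and 0.28 to 0.51.

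Some genes were not called between the enantiomers by the counts. DHX58 differed by -0.50 (95% interval -1.44 to 0.45), and IFITM3 by -0.07 (interval -0.13 to 0.00). IFI6 differed by -0.14 (interval -0.28 to 0.00). The wide interval of DHX58 leaves room for a large difference, and those of IFITM3 and IFI6 stay close to 0. After the correction IFITM3 (-0.11, adjusted p = 0.000357) and IFI6 (-0.18, adjusted p = 0.0106) were called, higher with the (2S,6S) form.

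**Figure D4:**
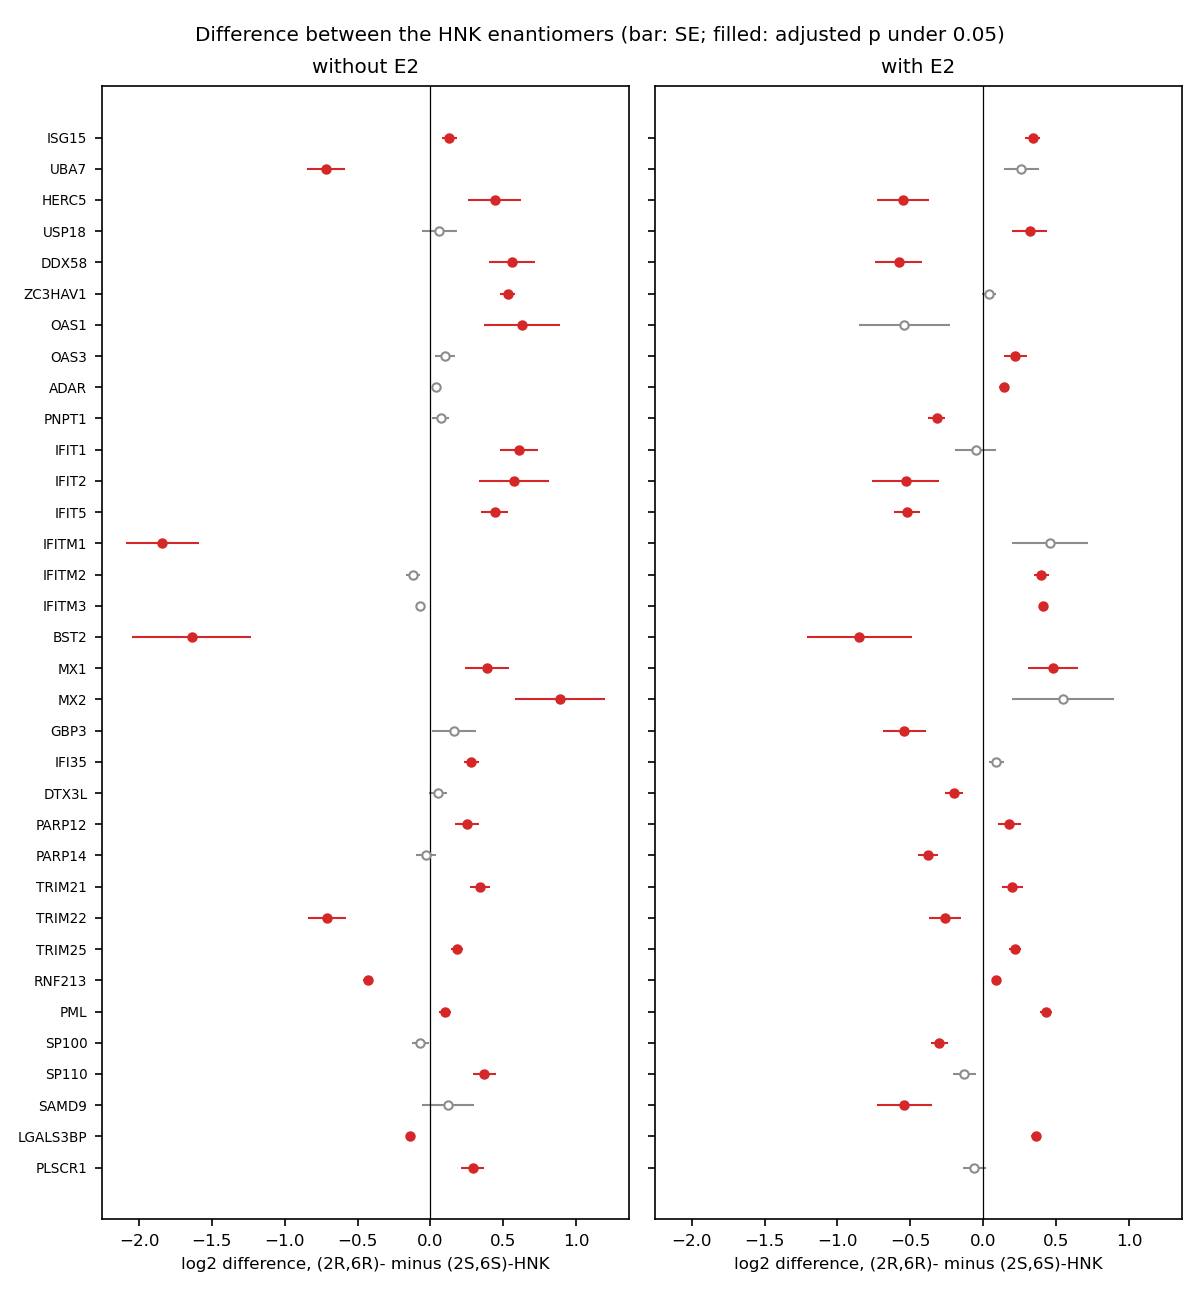
Log2 difference between (2R,6R)-HNK and (2S,6S)-HNK (horizontal; bar: SE) for the 34 genes called in at least 1 of the 2 panels, without E2 (left) and with E2 (right); filled points have an adjusted p under 0.05. IFITM1 (-1.84) and BST2 (-1.64) lie farthest from 0 in the left panel.

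With E2 in both arms, E2+(2R,6R)-HNK was above E2+(2S,6S)-HNK in 13 genes (background 29.1%) and below in 12 (background 25%), with 0 past 1 in either direction (backgrounds 0.3% and 0.362%), and the 13 became 8 without E2+(2R,6R)-HNK replicate 1. After the correction it was above in 10 (background 17.4%) and below in 3 (background 11.8%). By the counts, IFITM1 differed by 0.46 in this pair (adjusted p = 0.137) and BST2 by -0.85 ± 0.36 (adjusted p = 0.0392), a call lost without E2+(2R,6R)-HNK replicate 2 (-0.55). The corrected values were 0.35 (adjusted p = 0.299) and -1.02 (adjusted p = 0.0211). Ketamine was above (2R,6R)-HNK in 12 genes (background 22.8%) and below in 11 (background 22.6%), the latter 7 without ketamine replicate 1. After the correction it was above in 6 (background 13.6%) and below in 11 (background 24.1%). It was above (2S,6S)-HNK in 18 genes (background 22%) and below in 9 (background 24.2%), or 12 and 8 after the correction (backgrounds 17.1% and 23.9%). UBA7 was higher with ketamine than with (2R,6R)-HNK (0.62 ± 0.12), as were TRIM22 (0.68 ± 0.12) and RNF213 (0.59 ± 0.03), and MX1 was lower (-0.79 ± 0.15). BST2 was the 1 gene past 1 (1.10 ± 0.40; backgrounds 0.606% upward and 0.237% downward), and its call was lost without (2R,6R)-HNK replicate 2 (0.75). Against (2S,6S)-HNK, IFIT2 was above by more than 1 (1 gene, 1.28; background 1.1%), and IFITM1 (-1.62 ± 0.23) and IFI27 (-1.28) were below (2 genes; background 0.669%). The IFITM1 value was -0.50 without (2S,6S)-HNK replicate 2. OAS1 differed from (2R,6R)-HNK by -0.25 (interval -0.80 to 0.31).

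Among the 6 drug pairs, the largest shares of genes on 1 side were found between E2+ketamine and E2 with either HNK. E2+ketamine was above E2+(2R,6R)-HNK in 28 genes (57.1%; background 25.3%) and below in 4 (background 26.7%), and above E2+(2S,6S)-HNK in 24 (49%; background 31.7%) and below in 10 (background 35%). After the correction these counts were 29 and 2 (backgrounds 27.7% and 22.1%), and 31 and 3 (backgrounds 30.7% and 24.8%). Against E2+(2S,6S)-HNK 6 differences passed 1 (background 2.64%; downward 0, background 2.97%), namely OASL (1.89 ± 0.59), MX1 (1.46 ± 0.16), MX2 (1.38 ± 0.34), OAS1 (1.15 ± 0.28), OAS3 (1.09 ± 0.07) and ISG15 (1.05 ± 0.05). These 6 calls held without any 1 of the 4 libraries. Against E2+(2R,6R)-HNK, 2 did (background 1.27%; downward 0, background 1.82%), namely OAS1 (1.69 ± 0.30) and OAS2 (1.47 ± 0.66, adjusted p = 0.0472), of which OAS2 was lost without any 1 of the libraries (1.30 to 1.63). TRIM22 went the other way in both (-0.60 and -0.86). With p-values adjusted over the 6 pairs together, the numbers above and below changed by at most 1 in each pair.

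Whether E2 changed the effect of a drug was tested by the interaction, taken as the log2 effect of the drug on top of E2 minus that of the drug alone. For ketamine it was above 0 in 7 genes (background 24.5%) and below 0 in 8 (background 13.1%), or 2 and 14 with upper-quartile scaling, with 0 past 1 (backgrounds 0.431% and 1.39%). For (2R,6R)-HNK it was above 0 in 6 (background 31.5%) and below 0 in 21 (42.9%; background 25.2%), and for (2S,6S)-HNK in 12 (background 32.9%) and 20 (40.8%; background 32.2%). Below -1 lay 6 genes for (2R,6R)-HNK (background 2.77%) and 4 for (2S,6S)-HNK (background 2.96%), and above 1 lay 0 (background 2.91%) and 1 (background 7.75%). The ketamine counts depended on single libraries: they were 3 above 0 without ketamine replicate 1, 4 without E2+ketamine replicate 1 or vehicle replicate 2, and 5 below 0 without ketamine replicate 2 or vehicle replicate 1. After the correction for GC content and length, the counts for (2R,6R)-HNK were 1 and 25 (backgrounds 21.4% and 21.6%) and for (2S,6S)-HNK 2 and 24 (backgrounds 19.1% and 20.5%).

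Large negative interactions were found in the OAS and MX families. OAS1 stood at -2.86 with (2R,6R)-HNK (adjusted p = 2.48e-07) and -1.70 with (2S,6S)-HNK (adjusted p = 0.000788), MX2 at -2.27 (adjusted p = 0.000103) and -1.93 (adjusted p = 0.00118), and MX1 at -1.13 (adjusted p = 0.000136) and -1.22 (adjusted p = 5.14e-05). Without E2 replicate 2, in which MX2 was high, the MX2 values were -1.56 and -1.22, the latter no longer called (adjusted p = 0.0638), and without E2 replicate 1 the MX1 values were -0.68 and -0.77. With (2R,6R)-HNK, OAS2 (-2.56), IFIT1 (-1.16) and IFI35 (-1.06) were also below -1, and with (2S,6S)-HNK, IFITM1 was at -2.51, or -1.4 without the library with 770 counts. For ketamine the OAS1 and MX2 values were -0.93 (adjusted p = 0.0826) and -1.13 (adjusted p = 0.0662), and MX1 was positive (0.64, adjusted p = 0.0397), a call lost without E2 replicate 2 (0.31). ISG15 stood at 0.32 for ketamine, -0.92 for (2S,6S)-HNK and -0.71 for (2R,6R)-HNK, calls that held without any 1 library. Its corrected interactions were 0.31, -0.32 and -0.28 in the same order. On the positive side, PNPT1 (0.60, 0.56 and 0.95 in the order ketamine, (2R,6R), (2S,6S)) and IFIT5 (0.34, 0.30 and 1.26, the first pair each lost in 3 of 8 fits that left out a library) stood above 0. After the correction PNPT1 was not called for (2R,6R)-HNK (0.08, adjusted p = 0.435), nor IFIT5 for ketamine (0.13, adjusted p = 0.421) and (2R,6R)-HNK (-0.22, adjusted p = 0.114), and IFIT5 stood at 0.46 for the (2S,6S) form.

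**Figure D5:**
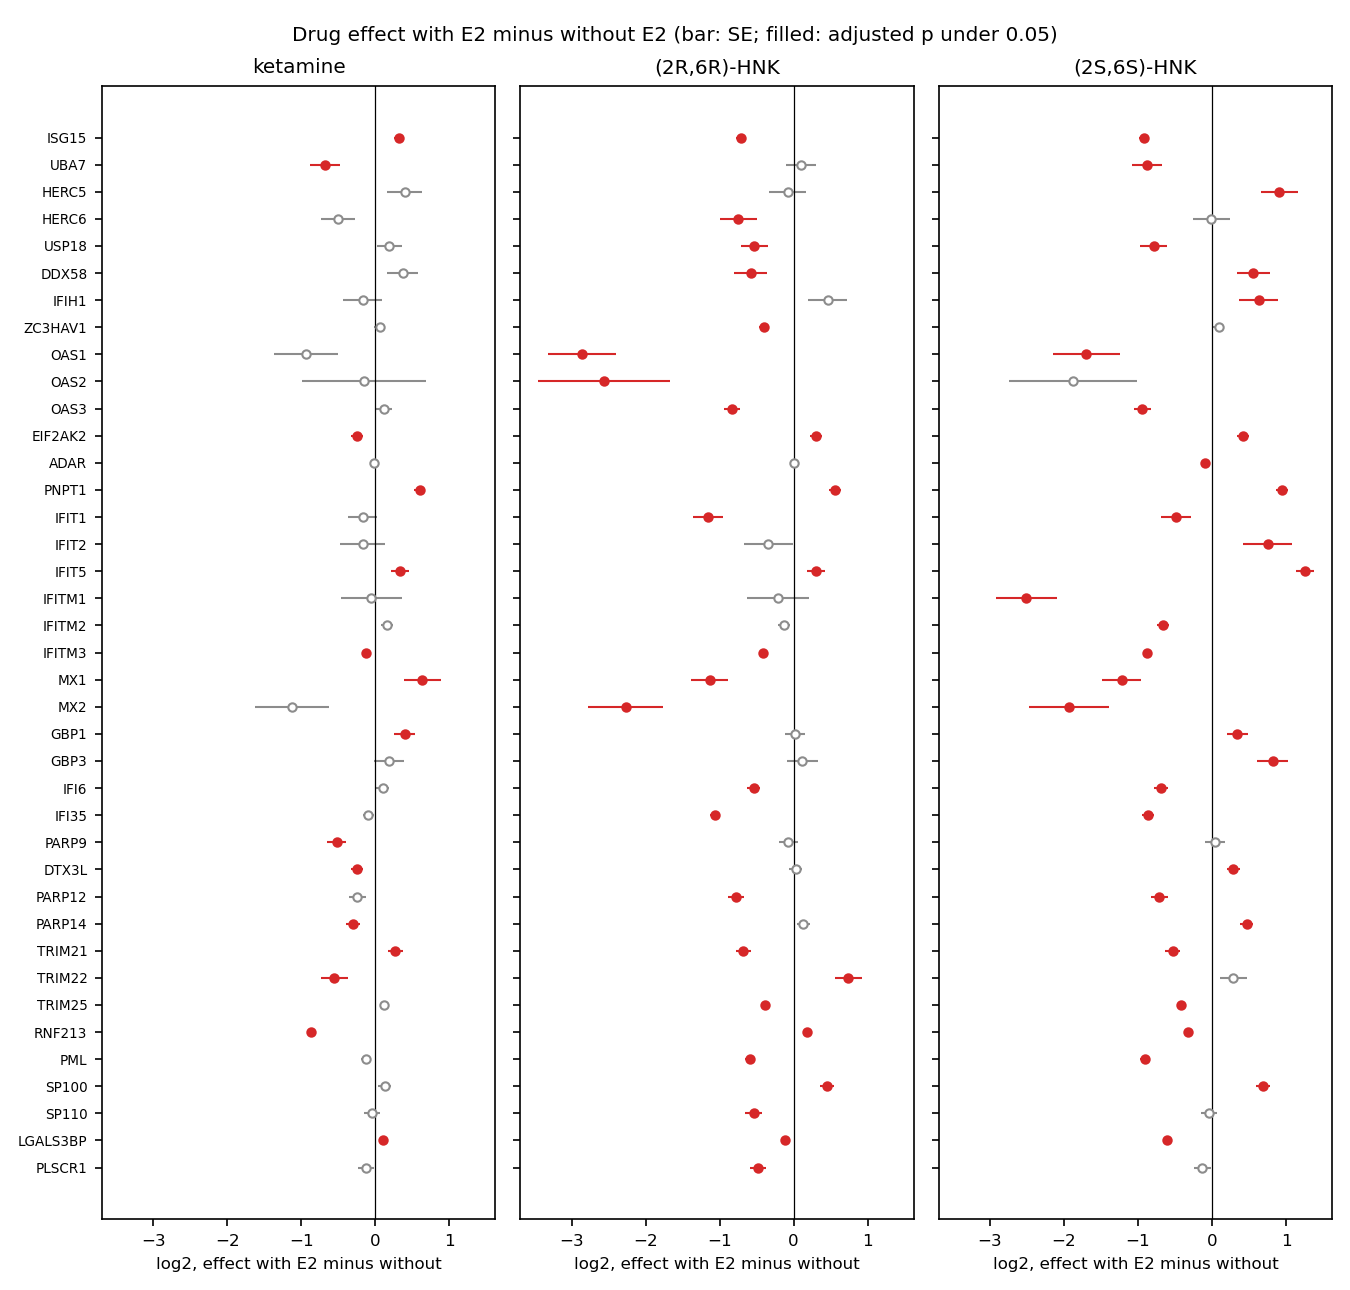
Interaction, the log2 effect of a drug with E2 minus its effect without E2 (horizontal; bar: SE), for the 39 genes called in at least 1 panel; panels are ketamine, (2R,6R)-HNK and the (2S,6S) form, and filled points have an adjusted p under 0.05. OAS1 and MX2 lie at -2.86 and -2.27 in the (2R,6R)-HNK panel and are not filled in the ketamine panel.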

How the data were processed

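The libraries were made from amplified cDNA and sequenced as paired reads. The authors aligned them to hg19 and deposited raw counts per gene for uniquely mapped pairs, although an excess of even low counts leaves unsettled whether each read of a pair was counted; the submitters' processing notes name TopHat2 2.0.14, Bowtie2 2.2.6 and featureCounts 1.4.6, and the methods of the study give other TopHat and Bowtie versions. The strand setting is not given in the sources used here. Genes, lists and comparisons were chosen with earlier results of these data known. The genes whose value in every library is printed were those past a log2 fold change of 1 in 2 or more comparisons with vehicle, those the study measured by RT-PCR, and the 3 with the highest mean CPM; ISG15 was added after its values were seen. Other genes were named where they were highest or lowest in their role group or went against it.

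The tool was edgeR 4.0.16, run with limma 3.58.1 under R 4.3.3. The filterByExpr function kept 16004 of 25370 genes, and TMM set the normalization. One quasi-likelihood fit with 8 condition means and 8 residual degrees of freedom gave all 16 comparisons, with Benjamini-Hochberg adjustment over all genes tested within each. The standard error is that of the fitted coefficient, intervals are 95%, and ± on a fold change is this error. An exact permutation test of 2 libraries against 2 cannot go below a two-sided p of 0.333 and was not used. Exon length, GC content and positions came from GENCODE gene models on GRCh37; 96% of the genes tested and all 54 members had them. The GC and length correction was a loess fit (span 0.5) in each library. The alternatives were DESeq2 1.42.0, other normalizations and filters, a fit of the compared groups only, halved counts, a replicate block and leaving out each library. The tests were tried on simulated data, in which an added GC trend led the uncorrected edgeR test to call most unchanged genes and the corrected one few. The trend was set by hand and not estimated from these libraries, and the correction is built to remove such a trend. The cause of the calls in these libraries was therefore not tested by it. The same replicate number in different conditions did not go with similar deviations (correlations -0.0258 to 0.0451).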

Additional observations from a re-analysis of the deposited data

Results flagged for a closer look

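The effect of a drug differed between cells with and without E2 (edgeR quasi-likelihood test of the interaction) in 7 genes above 0 and 8 below 0 for ketamine, 6 and 21 for (2R,6R)-HNK, and 12 and 20 for (2S,6S)-HNK. The shares of all genes called above and below 0 were 24.5% and 13.1%, 31.5% and 25.2%, and 32.9% and 32.2% in the same order. The correction for GC content and length gave 8 and 9, 1 and 25, and 2 and 24 genes, and upper-quartile scaling gave 2 and 14 for ketamine. With (2R,6R)-HNK, the effect was lower with E2 by more than 1 on the log2 scale for OAS1 (-2.86), OAS2 (-2.56), MX2 (-2.27), IFIT1 (-1.16), MX1 (-1.13) and IFI35 (-1.06). OAS2 rests on 7 and 8 counts under E2+(2R,6R)-HNK. With (2S,6S)-HNK it was lower for IFITM1 (-2.51), MX2 (-1.93), OAS1 (-1.70) and MX1 (-1.22), and higher for IFIT5 (1.26). After the correction for GC content and length, OAS1, OAS2, MX2, IFIT1 and MX1 stood at -2.82, -2.75, -2.31, -1.56 and -1.05 for (2R,6R)-HNK, IFI35 at -0.74, and IFIT5 for (2S,6S)-HNK at 0.46. The IFITM1 value was -1.4 without (2S,6S)-HNK replicate 2, the library with 770 counts, and the (2S,6S)-HNK value of MX2 lost its call without E2 replicate 2 (-1.22).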

How the results depend on the processing

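Of 239 called fold changes of members against vehicle, 220 kept their call under DESeq2, 222 under upper-quartile scaling, 234 under relative log expression scaling in edgeR, 234 with no filter on low counts, and 166 after the correction for GC content and length; no sign changed outside that correction. With counts halved, 235 of 238 were kept, with at least 10 counts in every library 227 of 231, and with only the compared groups in the fit 230 of 238. Leaving out 1 library kept 850 of 956. The replicate block kept all 239, in a design where equal numbers did not pair the libraries, and it added to the correction changed 3 of the values below. Precision is limited by 2 libraries per condition and, for BST2, DHX58, OAS2 and MX2, by 6 to 17 counts in vehicle.

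With the GC and length correction, alone or with the replicate block, the members lower than vehicle numbered 4 (E2), 3 (ketamine), 2 ((2R,6R)-HNK), 6 ((2S,6S)-HNK), 3 (E2+ketamine) and 8 (E2+(2S,6S)-HNK), and those past a log2 fold change of 1 under E2+(2R,6R)-HNK 5. Ketamine was above (2R,6R)-HNK in 6 genes. With E2, (2R,6R)-HNK was below (2S,6S)-HNK in 3 (2 with the block), and ketamine below (2R,6R)-HNK in 2 and below (2S,6S)-HNK in 3 (4 with the block). Interactions above 0 numbered 2 for (2S,6S)-HNK and 1 for (2R,6R)-HNK. The other pathway genes that were lower numbered 3 (E2), 2 (ketamine), 3 ((2R,6R)-HNK) and 2 (E2+ketamine).

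The corrected log2 fold change had the opposite sign to the uncorrected one for EIF2AK2 (E2 0.21, (2R,6R)-HNK 0.28, (2S,6S)-HNK 0.13, E2+ketamine 0.18, E2+(2R,6R)-HNK 0.20), DTX3L (0.10, 0.26, 0.16, 0.26 and 0.03 in that order) and PARP14 (0.09, 0.26, 0.22, 0.25 and 0.07). The same held for ZC3HAV1 under E2 (0.05) and (2R,6R)-HNK (0.12), for SAMD9 under ketamine (0.03, or 0.02 with the block) and (2S,6S)-HNK (0.18), for PLSCR1 under E2+(2R,6R)-HNK (0.42) and E2+(2S,6S)-HNK (0.13), and for IFI35 under E2+(2R,6R)-HNK (-0.11). It also held for LGALS3BP under E2 (-0.08), SP110 under (2S,6S)-HNK (0.02), IFIT5 under (2R,6R)-HNK (0.01), SP100 (0.01) and PML (-0.01) under E2+(2S,6S)-HNK, and, at 0 after rounding, for IFITM2 under E2 and IFI35 under E2+(2S,6S)-HNK.

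The 2 genes past 1 under E2 became 1 with DESeq2, with only the compared groups, with no filter, with at least 10 counts in every library and with halved counts, and 1 to 2 when 1 library was left out. Upper-quartile scaling gave 6 lower and 12 past 1 for (2R,6R)-HNK, 5 past 1 for E2+(2S,6S)-HNK (also 5 with only the compared groups), 2 above and 14 below 0 for the ketamine interaction, and 3 lower other pathway genes under ketamine. DESeq2 gave 4 above 0 for the ketamine interaction. Leaving out 1 library gave 11 to 13 genes for (2R,6R)-HNK above (2S,6S)-HNK, 7 to 11 for ketamine below (2R,6R)-HNK, 8 to 13 for E2+(2R,6R)-HNK above E2+(2S,6S)-HNK, and 3 to 7 above and 5 to 9 below 0 for the ketamine interaction. The cause of these changes was not tested.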
